A study of Homo sapiens with 3 samples.

Results

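Mitochondrial DNA (mtDNA) carries 37 genes, and their transcripts were followed in the established pancreatic cancer line PANC-1 by RNA-seq of 1 untreated library, 1 library of cells given 200 μM Ginsenoside Rg3 (Rg3) for 24 h and 1 library of cells given 50 μM tamoxifen (TAM) for 24 h. Rg3 is a constituent of ginseng, and TAM is an estrogen receptor ligand that also inhibits protein kinase C. The genes were chosen by name from the 51136 rows of the count table, and all 37 were found. They comprise 13 protein-coding genes, 2 ribosomal RNA (rRNA) genes and 22 transfer RNA (tRNA) genes. The series design states that gene expression was examined after either agent, so each treated library was set against the untreated one. The label of the untreated library gives its agent as none and names no vehicle.

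Both strands of mtDNA are transcribed as long precursors that run through most of the circle, and the mitochondrial RNA polymerase POLRMT does this with the factors TFAM and TFB2M. In the tRNA punctuation model, tRNAs that lie between the other genes are cut out at both ends, which frees the rRNAs and mRNAs, and LRPPRC then protects the polyadenylated mRNAs. The mRNAs encode core subunits of the respiratory complexes and of ATP synthase, while the rRNAs and tRNAs serve translation inside the organelle. PANC-1 cells, like other cultured cancer cells, depend on nuclear genes for every other mitochondrial protein.

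Gene counts summed to 11300766 for the untreated cells, 12861693 for Rg3 and 11321442 for TAM. Since each condition has a single library, none of the differences could be checked against replicates, and the test used, a two-sided exact binomial test of read numbers, compares libraries and not conditions. A gene was called when its fold was over 1.5 or under 0.67 and its adjusted p was under 0.05 after TMM scaling, a scaling that centres on the bulk of genes. Intervals are 95% intervals and cover counting error only. They are exact, except for differences in log2 fold change between genes, where they are normal approximations. PANC-1 markers were present (KRT8 had 15329, 7817 and 14411 counts in the untreated, Rg3 and TAM libraries, and KRT19 had 665, 290 and 181), the leukocyte gene PTPRC and the endothelial gene PECAM1 had 0 or 1 count, and EPCAM, another epithelial marker, had 26 counts or fewer. The collagen gene COL1A1, a fibroblast marker, had 1853, 1005 and 734 counts, and vimentin (VIM), which this line is known to express, had 55276, 39783 and 42048. Their part in the results was not tested. In such bulk RNA, fewer mitochondria, less RNA in each and a change in the cells that were left cannot be told apart.

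The tRNAs that were called lower in both treated libraries (the rule for a call is given above), which share the untreated library as reference, are shown with TRNM, a tRNA that was not called in either. The sequences are those of the GENCODE 29 transcripts on GRCh38, 5′ to 3′ on the strand of the gene, without the CCA end that is added after transcription, and capitals mark the anticodon.
TRNV (tRNA-Val, chrM:1602-1670, plus strand): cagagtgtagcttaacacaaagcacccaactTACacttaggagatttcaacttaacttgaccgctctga
TRNQ (tRNA-Gln, chrM:4329-4400, minus strand): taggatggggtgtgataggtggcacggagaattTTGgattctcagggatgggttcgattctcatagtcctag
TRNW (tRNA-Trp, chrM:5512-5579, plus strand): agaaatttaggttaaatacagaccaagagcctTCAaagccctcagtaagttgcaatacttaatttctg
TRND (tRNA-Asp, chrM:7518-7585, plus strand): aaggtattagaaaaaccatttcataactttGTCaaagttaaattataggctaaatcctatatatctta
TRNT (tRNA-Thr, chrM:15888-15953, plus strand): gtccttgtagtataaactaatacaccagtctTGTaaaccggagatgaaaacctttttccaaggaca
TRNM (tRNA-Met, chrM:4402-4469, plus strand): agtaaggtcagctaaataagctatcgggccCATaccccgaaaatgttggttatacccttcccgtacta

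TRND, at 23.5% GC, is among the most AT-rich of these genes, whereas TRNQ has 48.6% GC. TRNQ is encoded on the strand opposite to its neighbours TRNI and TRNM and overlaps the end of TRNI. Whether the counting used strand is not given in the sources used here, so reads of TRNQ, of ND6 and of the other genes on that strand cannot be told from RNA of the opposite strand. A pair of mRNAs shares bases as well. ATP8 and ATP6 overlap by 46 bases, in which capitals mark the start codon of ATP6 and the stop codon of ATP8.
ATP8 and ATP6 overlap (chrM:8527-8572, plus strand): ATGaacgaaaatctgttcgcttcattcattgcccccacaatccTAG
ND4L and ND4 overlap by 7 bases in the same way. How reads in such overlaps were assigned is not given in the sources used here.

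The mtDNA genes took 349008 reads without treatment, 313467 with Rg3 and 262813 with TAM. These were 3.09% of the gene counts of the untreated library (interval 3.08% to 3.10%), 2.44% of the Rg3 library (2.43% to 2.45%) and 2.32% of the TAM library (2.31% to 2.33%). Both treated libraries were thus below the untreated library by more than counting error. The 3 kinds of RNA did not move together. The mRNAs held 316772, 246464 and 212067 reads in the untreated, Rg3 and TAM libraries. The rRNAs held 31420, 66371 and 50406 reads, so that they were higher in both treated libraries. The tRNAs held 816, 632 and 340 reads, with the lowest number after TAM.

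Within the mtDNA reads, which need no scaling between libraries, RNR1 and RNR2 together made up 9.00% of the untreated library (interval 8.91% to 9.10%), 21.2% of the Rg3 library (21.0% to 21.3%) and 19.2% of the TAM library (19.0% to 19.3%). For every 100 mRNA reads there were 9.92 rRNA reads without treatment, 26.9 with Rg3 and 23.8 with TAM. The tRNA share of mtDNA reads was 0.234% without treatment (0.218% to 0.250%), 0.202% with Rg3 (0.186% to 0.218%) and 0.129% with TAM (0.116% to 0.144%). The intervals of the untreated and Rg3 tRNA shares nearly meet, and that of TAM lies below both. How the RNA was selected for sequencing is not given in the sources used here, and its part in the rRNA and tRNA shares was not tested.

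**Figure D1:**
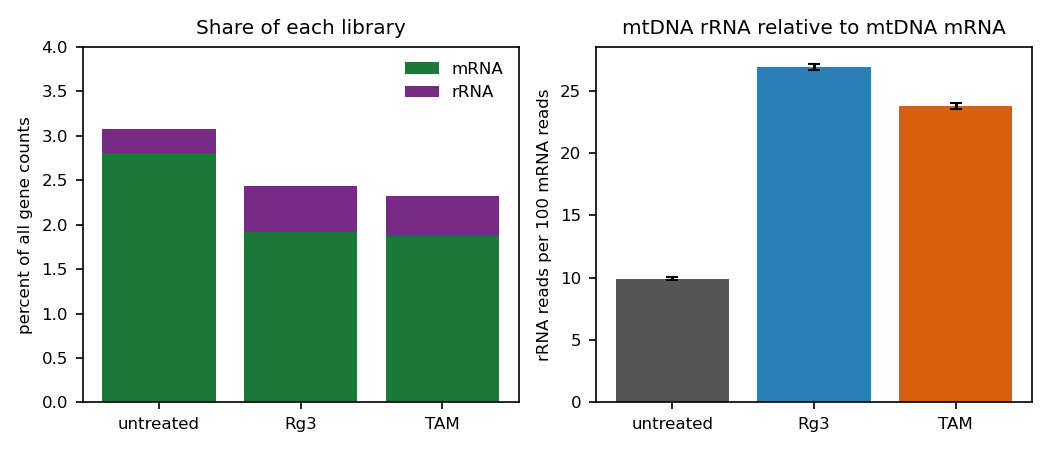
The left panel stacks the mtDNA mRNA and rRNA reads of each library as a percent of all its gene counts, and the right panel gives mtDNA rRNA reads per 100 mtDNA mRNA reads, with 95% counting intervals as bars. The mRNA part was largest in the untreated library, while rRNA rose from 9.92 reads per 100 mRNA reads there to 26.9 with Rg3 and 23.8 with TAM.

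Between genes, levels were compared per length, as TMM-scaled RPKM, the reads divided by gene length and library size. In the untreated library COX2, a core subunit of cytochrome c oxidase, had the highest level of the mRNAs (7115), followed by COX1 (4739), ND4L (3719), COX3 (3538), ND4 (2283), ATP6 (2055), ND3 (1903), CYTB (1699.7), ND1 (1627), ND2 (1011), ATP8 (972) and ND5 (862). ND6, the only mRNA from the other strand, stood lowest at 41.0. RNR2 and RNR1, the large and the small ribosomal RNA, had levels of 1483 and 444. With no second library of a condition, the spread around this order is unknown.

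The order was not the same in the treated libraries. COX2 stayed first, at a level of 4976 with Rg3 and 6825 with TAM. COX1 stood second in the untreated and TAM libraries (TAM level 3813) and fell behind ND4L and RNR2 in the Rg3 library, where its level was 2349 beside 2706 for ND4L and 2575 for RNR2. COX3 had a level of 2211 with Rg3 and 1592 with TAM. In the TAM library it lay below RNR2 (2668) and ND4 (1914).

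**Figure D2:**
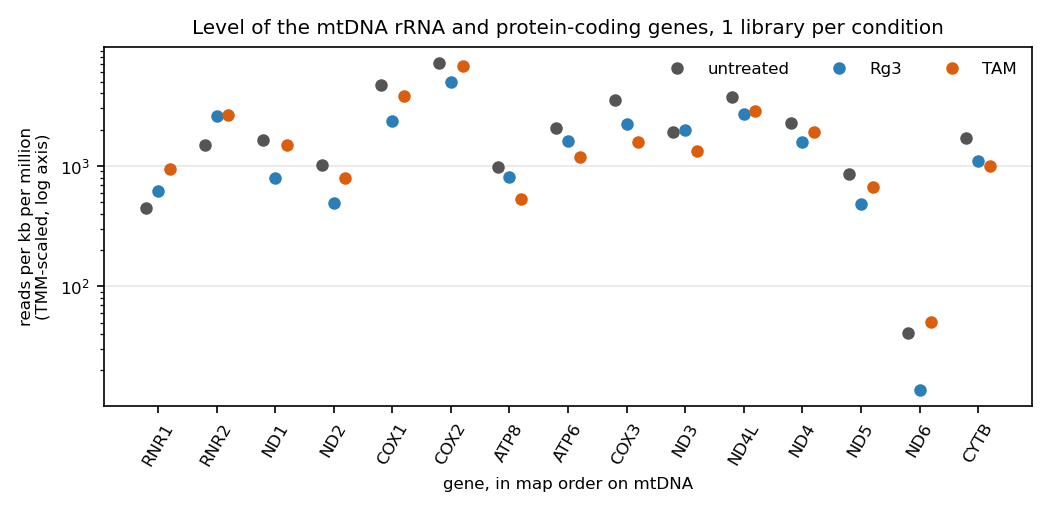
Points give the level of each mtDNA rRNA and mRNA gene, in map order, in TMM-scaled RPKM on a log axis, for the untreated (grey), Rg3 (blue) and TAM (orange) libraries. RNR1 and RNR2 were higher in both treated libraries, and most mRNAs were lower. Among the libraries, COX1 had its lowest level with Rg3 (2349) and COX3 had its lowest level with TAM (1592).

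In the Rg3 library, 29 of the 37 genes had at least 10 counts in either library and were compared. The fold limit and the test called 14 of them lower and 1 higher, where 15.8% of all 16487 genes compared were called lower and 20.5% higher. The median log2 fold change of the mtDNA genes was -0.68, beside 0.04 over all genes compared. The summed mRNA reads had a log2 fold change of -0.69 (-0.70 to -0.68), the summed rRNA reads one of 0.75 (0.73 to 0.77) and the summed tRNA reads one of -0.70 (-0.85 to -0.54). The 14 lower genes were 7 of the 13 mRNAs and 7 of the 14 tRNAs compared.

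Of the 7 complex I subunits, the NADH dehydrogenase genes, 4 were called lower with Rg3. ND1 had 17857 counts without treatment, 10966 with Rg3 and 14232 with TAM, and its log2 fold change with Rg3 was -1.03 (-1.06 to -0.996). ND2 had 12098, 7349 and 8282 counts, with a Rg3 change of -1.05 (-1.09 to -1.004). ND5 had 17928, 12602 and 12128 counts and a change of -0.84 (-0.87 to -0.80). For these 3 genes the Rg3 library lay clearly below the untreated library.

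ND6 was the member of complex I with the lowest fold. It had 247 counts without treatment, 104 with Rg3 and 265 with TAM, a Rg3 log2 change of -1.57 (-1.92 to -1.24). ND4 had 36128, 31429 and 26256 counts, and ND4L had 12681, 11573 and 8384. Their Rg3 log2 fold changes of -0.53 and -0.46 stayed inside the fold limit. ND3 had 7559, 9921 and 4616 counts, and its Rg3 value of 0.07 (0.02 to 0.11) was the only mRNA value above 0.

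In complex IV, COX1 and COX3 were called lower, although COX3 was not when library totals were used. COX1, which binds the haem and copper of the active site, had 83903 counts without treatment, 52154 with Rg3 and 58518 with TAM, and a Rg3 log2 fold change of -1.01 (-1.03 to -0.997). COX3 had 31848, 24964 and 12426 counts and a Rg3 change of -0.68 (-0.70 to -0.65). COX2 had 55878, 49014 and 46460 counts, and its Rg3 value of -0.52 was inside the limit. CYTB, the cytochrome b of complex III, had 22267, 18051 and 11351 counts and was called lower at -0.63 (-0.66 to -0.60), just past the limit, and also not called with library totals.

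The ATP synthase genes were not called with Rg3. ATP6 had 16067, 15912 and 8051 counts in the untreated, Rg3 and TAM libraries, and ATP8 had 2311, 2425 and 1098. Their Rg3 log2 fold changes were -0.34 (-0.37 to -0.31) and -0.26 (-0.34 to -0.17). Among the mRNAs called lower, the largest adjusted p of the exact binomial test was that of ND6, 1.16e-21.

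The rRNAs went the other way. RNR2 had 26554 counts without treatment, 57804 with Rg3 and 41390 with TAM, and was called higher with Rg3 at 0.80 (0.77 to 0.82). RNR1 had 4866, 8567 and 9016 counts, and its Rg3 value of 0.49 (0.44 to 0.54) did not reach the fold limit. The ratio of RNR2 to RNR1 reads was 5.46 without treatment (5.29 to 5.63), 6.75 with Rg3 (6.60 to 6.90) and 4.59 with TAM (4.49 to 4.70), so that the balance of the rRNAs shifted in opposite directions in the treated libraries.

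Of the 22 tRNAs, 8 had under 10 counts in every library, with 0 to 9 counts each, and TRNL2 had none at all, which allows up to 3 counts in a library. The deepest, TRNL1, the tRNA that follows RNR2 on the map, had 182 counts without treatment, 107 with Rg3 and 109 with TAM. It was called lower with Rg3 at -1.09 (-1.45 to -0.74). TRND had 128, 36 and 15 counts, the lowest tRNA fold with Rg3 at -2.16 (-2.73 to -1.61). Both treated libraries were thus far below the untreated library for TRND.

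TRNW had 78, 53 and 34 counts and TRNT had 60, 42 and 6. They were called lower with Rg3 at -0.88 (-1.42 to -0.36) and -0.84 (-1.45 to -0.25). TRNV (45, 17 and 22 counts), TRNQ (31, 15 and 2) and TRNI (22, 12 and 9), named after their values were seen because they had fewer than 50 counts, were also called lower, at -1.73, -1.37 and -1.20. The largest adjusted p of these tRNA calls in the exact test was 0.0392, for TRNI. TRNM had 115, 174 and 75 counts, with a Rg3 value of 0.27 (-0.08 to 0.62). TRNF, the first gene of the rRNA precursor, had 50, 55 and 32 counts, with -0.19 (-0.77 to 0.39). Neither was called. TRNY (5, 16 and 4 counts) and TRNA (10, 18 and 2), also named after their values were seen, lay above 0 with Rg3. Their values were 1.35 (-0.16 to 3.15) and 0.52 (-0.67 to 1.80), and they were not called. Of the 14 tRNAs compared with Rg3, 11 lay below 0 and 3 above. TRNE had 10 counts or more in the untreated library alone and TRNY in the Rg3 library alone, which favours the side of their values.

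In the TAM library 28 mtDNA genes were compared, of which 10 were called lower and 2 higher. Over all 16079 genes compared, 18.4% were called lower and 14.0% higher. The median log2 fold change was -0.55, beside -0.02 over all genes. The summed mRNA reads stood at -0.37 (-0.38 to -0.36), the rRNA reads at 0.89 (0.87 to 0.91) and the tRNA reads at -1.06 (-1.24 to -0.87).

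The mRNAs called lower with TAM were 4 of the 13. COX3 had the lowest value, -1.15 (-1.18 to -1.12), with the counts given above. ATP8 stood at -0.87 (-0.97 to -0.76), ATP6 at -0.79 (-0.83 to -0.75) and CYTB at -0.77 (-0.80 to -0.73). The adjacent genes ATP8, ATP6 and COX3 have no tRNA between them, and all of them were among the lower genes. The largest adjusted p among these 4 in the exact test was 2.05e-62, for ATP8.

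None of the 7 complex I subunits was called with TAM under TMM scaling, but with library totals ND3 and ND4L were called lower. Their log2 fold changes ran from -0.51 for ND3 (-0.56 to -0.45) to 0.31 for ND6 (0.05 to 0.56). ND1 stood at -0.12, ND2 at -0.34, ND4 at -0.25, ND4L at -0.39 and ND5 at -0.36. COX1 at -0.31 and COX2 at -0.06 were not called either, so that within complex IV COX3 alone was called lower. Reads of COX1 per read of COX3 were 2.63 without treatment (2.60 to 2.67), 2.09 with Rg3 (2.06 to 2.12) and 4.71 with TAM (4.62 to 4.80).

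RNR1 and RNR2 were both called higher with TAM. RNR1 stood at 1.10 (1.05 to 1.15) and RNR2 at 0.85 (0.82 to 0.87). RNR1 therefore had the larger log2 fold change of the pair with TAM, by 0.25 (0.19 to 0.30), whereas with Rg3 it had the smaller one, with a difference of -0.31 (-0.36 to -0.25).

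All 13 tRNAs compared with TAM had a value below 0, and 6 were called. Over all 16079 genes compared, 8252 lay below 0. Among the 6, TRNT, TRNQ and TRNS2 had 10 counts or more in the untreated library alone. So had TRNI, TRNA, TRNE and TRNP, which were not called. For such genes the filter itself favours a value below 0, so their direction is not a result about them. TRND stood at -2.89 (-3.77 to -2.11), TRNT at -3.12 (-4.62 to -1.91) and TRNW at -0.99 (-1.62 to -0.39). TRNT rested on 6 reads in the TAM library. TRNQ, with 2 reads in the TAM library against 31, had a ratio of 0.0744 on TMM-scaled counts, a log2 value of -3.75 (-6.86 to -1.77). TRNS2 (36, 26 and 6 counts, also named after its values were seen) at -2.38 and TRNV at -0.83 were the other tRNAs called, with adjusted p in the exact test of 5.01e-05 and 0.0499. TRNL1 at -0.53, TRNM at -0.41 and TRNF at -0.44 were not called.

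**Figure D3:**
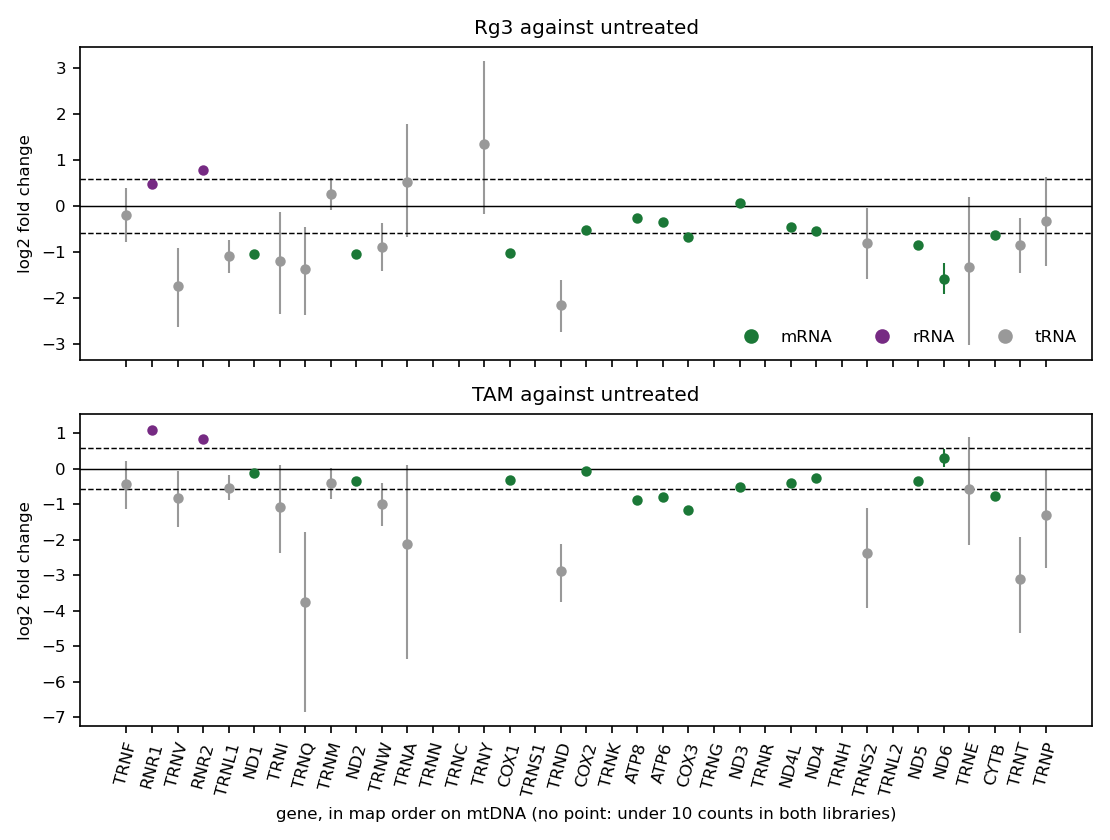
Points give the log2 fold change of each mtDNA gene compared, in map order, for Rg3 (top) and TAM (bottom) against the untreated library, with 95% counting intervals as bars and the fold limits as dashed lines. RNR1 and RNR2 lay above 0 in both panels, TRND was far below in both (-2.16 and -2.89), and COX3 was the lowest mRNA with TAM (-1.15).

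Neighbours on the map could differ although one precursor carries them. TRND lies directly before COX2, and there were 437 COX2 reads per TRND read without treatment (367 to 523), 1362 with Rg3 (983 to 1944) and 3097 with TAM (1878 to 5534). TRNT follows CYTB, and the difference of their log2 fold changes, TRNT minus CYTB, was -2.35 (-3.56 to -1.14) with TAM and -0.21 (-0.78 to 0.36) with Rg3. TRNM, which precedes ND2, exceeded it by 1.32 (0.97 to 1.66) with Rg3 and differed from it by -0.07 (-0.49 to 0.35) with TAM. RNR2 and ND1, on either side of TRNL1, were apart by 1.83 (1.79 to 1.87) with Rg3 and 0.97 (0.93 to 1.01) with TAM.

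The overlapping pairs named above, ATP8 with ATP6 and ND4L with ND4, lay close to each other. The part of reads in their shared bases was not tested. TRNL1 and ND1, adjacent genes, were as close with Rg3, at -0.06 (-0.41 to 0.28), TRNL1 minus ND1. With TAM they differed by -0.41 (-0.76 to -0.07). ATP6 minus ATP8 was -0.08 (-0.17 to 0.00462) with Rg3 and 0.08 (-0.03 to 0.19) with TAM. ND4 minus ND4L was -0.07 (-0.11 to -0.03) with Rg3 and 0.14 (0.09 to 0.18) with TAM. COX3 stood apart from ATP6, with which it shares base 9207, by -0.34 (-0.38 to -0.30) with Rg3 and -0.36 (-0.41 to -0.31) with TAM. ND5 and ND6, adjacent genes on opposite strands, differed by 0.74 (0.41 to 1.07) with Rg3 and by -0.67 (-0.92 to -0.41) with TAM, ND5 minus ND6.

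By strand, the 14 tRNAs on the plus strand summed to 726 counts without treatment, 531 with Rg3 and 312 with TAM. The 8 on the minus strand summed to 90, 101 and 28. The log2 fold changes of the plus sum were -0.78 (-0.94 to -0.61) with Rg3 and -1.01 (-1.21 to -0.82) with TAM. Those of the minus sum were -0.16 (-0.58 to 0.27) and -1.48 (-2.15 to -0.85). Without TRND, TRNL1 and TRNM, the 3 deepest tRNAs, the remaining 19 summed to 391 counts without treatment, 315 with Rg3 and 141 with TAM, at -0.64 (-0.86 to -0.42) and -1.27 (-1.55 to -0.98).

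With Rg3 set against TAM, whose doses differ, 28 mtDNA genes were compared, 6 of them called higher and 5 lower in the Rg3 library. Over all 16493 genes, 30.8% were called higher and 27.2% lower. The lower genes were ND1 (-0.91), ND2 (-0.71), COX1 (-0.70), ND6 (-1.88) and RNR1 (-0.61). The higher genes were ATP8 (0.61), just past the limit, and the tRNAs TRNM (0.68), TRNT (2.27), TRNQ (2.37), TRNS2 (1.58) and TRNA (2.64). The last 4 rested on 2 to 6 reads in the TAM library and had 10 counts or more in the Rg3 library alone. For such genes the filter itself favours a higher value with Rg3, so their direction is not a result about them. TRNQ, TRNS2 and TRNA, which had fewer than 50 counts, were named after their values were seen.

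The scaling between libraries moved all of these values by a constant. With library totals in place of TMM, every log2 fold change was 0.14 higher with Rg3, 0.21 lower with TAM and 0.35 higher for Rg3 against TAM. With Rg3, 11 mtDNA genes were then called lower and 2 higher, where 10.6% and 26.5% of all genes were. COX3 (-0.54) and CYTB (-0.49) lost their calls with Rg3, and RNR1 (0.63) gained one. With TAM 17 were called lower and 2 higher, against 26.9% and 6.97% of all genes. Among those that gained a call with TAM were ND3 (-0.71), ND4L (-0.60), TRNL1 (-0.74) and TRNM (-0.62). For Rg3 against TAM, 12 were called higher and 1 lower (40.8% and 16.7% of all genes), and of the 5 genes called lower above ND1, ND2, COX1 and RNR1 lost their calls, so that the balance of calls between the agents depended on the scaling.

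Fold changes in these libraries also followed base composition. Over nuclear genes with at least 50 counts, Spearman's rho of the log2 fold change with GC content was -0.81 for Rg3 (11583 genes) and 0.51 for TAM (11022 genes), and with transcript length 0.20 and -0.45. Genes of a library are not independent, so these values are descriptions. Among the 13 mtDNA mRNAs, rho with GC content was -0.37 for Rg3 and 0.09 for TAM, and among the tRNAs compared 0.34 (14 genes) and 0.04 (13 genes). At the GC content and length of the mtDNA genes, the trend over nuclear genes (a loess fit) ran from 0.08 to 0.70 with Rg3 and from 0.03 to 0.23 with TAM, on the log2 fold change scale. All 13 mtDNA mRNAs lay below that trend with Rg3, the nearest of them, ND3, at -0.42 from it.

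When the trend over nuclear genes was subtracted, 21 mtDNA genes were called lower with Rg3 and 0 higher, where 7.2% and 4.86% of all genes were, and 12 of the 13 mRNAs were among the lower ones. The exception was ND3. RNR1 and RNR2 then stood at 0.22 and 0.32, and RNR2 was no longer called. With TAM, 13 were called lower and 2 higher, against 11.8% and 9.99% of all genes, and RNR1 and RNR2 stayed called at 0.99 and 0.81. For Rg3 against TAM, 3 were called higher and 10 lower, against 15.1% and 16.4%. GC content or length was extreme for 16 of the 29 genes compared with Rg3, among them ATP8, ND4L and every tRNA. Such values lay near or beyond the ends of the nuclear range, and the trend was taken at the edge of its central part. Where the fit gave no value there, that of the nearest nuclear gene was used. The part of base composition in these differences was not tested.

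**Figure D4:**
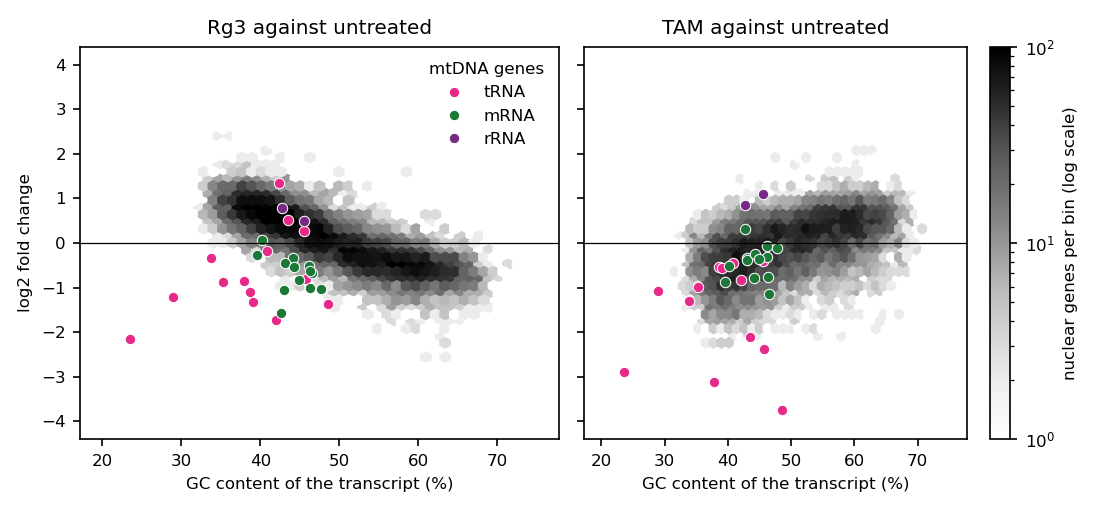
Log2 fold change against GC content of the transcript for Rg3 (left) and TAM (right) against the untreated library, with nuclear genes of at least 50 counts as grey bins (darker for more genes) and mtDNA genes as points. Nuclear genes fell with GC content after Rg3 (rho -0.81) and rose with it after TAM (rho 0.51), and with Rg3 the mtDNA mRNAs lay below the bulk of nuclear genes of like GC content.

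Nuclear DNA holds copies of mtDNA, and reads can be split between a gene and its copies. Of all stretches of 50 bases, 49.5% of those in COX1, 46.7% in ATP6, 43.6% in ND2, 30.6% in COX3, 28.98% in COX2, 22.1% in ND1, 17.9% in ND6 and 14.0% in RNR2 recurred in nuclear transcripts of GENCODE 29. The share was 8.23% or lower in ATP8, ND5, ND4 and CYTB, and none recurred in RNR1, ND3, ND4L or any tRNA. Values of every gene with such stretches are uncertain, since the handling of reads that map to several places is not given in the sources used here. The 167 rows named as copies held 7881 reads without treatment, 5974 with Rg3 and 5320 with TAM, which equal 2.26%, 1.91% and 2.02% of the mtDNA reads. MTND1P23, a copy of ND1, had a log2 fold change of -1.21 with Rg3 and -0.06 with TAM, beside -1.03 and -0.12 for ND1. MTND2P28 had -0.99 and -0.55, beside -1.05 and -0.34 for ND2. MTND4P12 had -0.95 and -0.68, beside -0.53 and -0.25 for ND4, and MTND5P11 had -0.98 and -0.41, beside -0.84 and -0.36 for ND5. Beside RNR2 (0.80 and 0.85), the RNR2-like genes MTRNR2L8 (0.72 and 0.26), MTRNR2L1 (0.67 and 0.03), MTRNR2L2 (0.35 and 0.10) and MTRNR2L12 (0.21 and -0.10) all had smaller values with both agents. MTRNR2L2 and MTRNR2L12 were named after their values were seen.

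The nuclear genes that make and process mtDNA transcripts were read beside them. POLRMT had 774 counts without treatment, 493 with Rg3 and 1093 with TAM, and was called lower with Rg3 (-0.98) and higher with TAM (0.70). TFAM had 270, 595 and 164 counts, called higher with Rg3 (0.81) and not called with TAM (-0.51). LRPPRC had 1515, 3318 and 714 counts, called higher with Rg3 (0.80) and lower with TAM (-0.88). TFB2M followed the same course (144, 279 and 74 counts, 0.63 and -0.75), and MTERF1, the termination factor that binds in TRNL1, had 38, 72 and 18 counts and was not called against the untreated library. With the GC and length trend removed, POLRMT, TFAM and LRPPRC lay within the fold limit in both treated libraries, and TFB2M was called with TAM alone (-0.72).

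Over the 30 genes listed for mtDNA transcription and RNA processing, Rg3 had 12 called higher and 4 lower, with a median log2 fold change of 0.41, and TAM had 4 higher and 8 lower, with a median of -0.12. Over all genes, 20.5% were called higher and 15.8% lower for Rg3, and 14.0% and 18.4% for TAM, so that the 4 lower with Rg3 and the 4 higher with TAM are near the background. Among genes with at least 100 counts, the largest rises with Rg3 were those of FASTKD1 (1.35), FASTKD3 (1.23) and TRNT1, which adds the CCA end of tRNAs (1.02), while FASTK (-0.74) and TBRG4 (-0.69) fell with POLRMT. With TAM, FASTK (0.97) and MRPL12 (0.79) rose beside POLRMT, and ANGEL2 (-1.27), FASTKD5 (-1.16) and TRMT10C, a subunit of the RNase P that cuts tRNA 5′ ends (-1.06), fell. With the trend removed none of the 30 was called with Rg3, where 4.86% of all genes were called higher and 7.2% lower, and 2 were called higher and 4 lower with TAM, against 9.99% and 11.8%. The medians of this list were then -0.07 with Rg3 and 0.14 with TAM.

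Of the 77 mitochondrial ribosome proteins compared, which bind RNR1 and RNR2, Rg3 had 13 called higher and 8 lower (median -0.07), and TAM had 27 higher and 2 lower (median 0.43). Read against the same shares over all genes, the counts for Rg3 do not exceed the background, and with TAM the number called higher lies above it and the number called lower below it. Among genes with at least 100 counts, MRPS6 (1.01), MRPS18A (1.00) and MRPL53 (0.97) had the largest rise with TAM, and PTCD3 (-0.68) and MRPS10 (-0.61) fell. With Rg3, MRPL13 (1.05), MRPL48 (0.95) and MRPL50 (0.91) rose, and MRPL28 (-0.84), MRPL2 (-0.76) and MRPS2 (-0.73) fell. With the trend removed, the counts for Rg3 were 4 higher and 7 lower, and those for TAM 13 higher and 0 lower, beside the trend-removed shares over all genes given above.

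**Figure D5:**
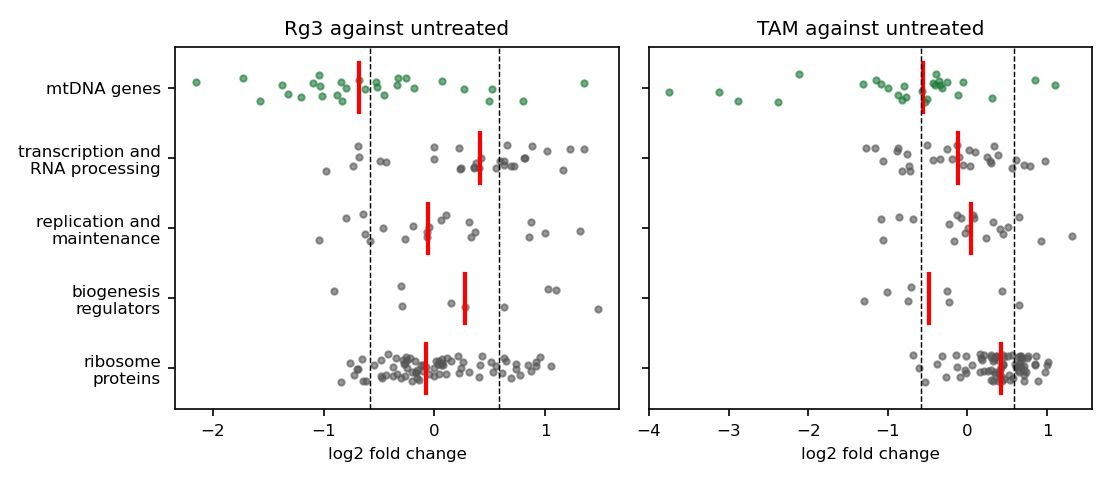
Points give the log2 fold change of each gene compared, for the mtDNA genes and 4 lists of nuclear genes for mitochondrial gene expression, with Rg3 (left) and TAM (right) against the untreated library. Red bars are medians and dashed lines the fold limits. The mtDNA genes had the lowest median in both panels (-0.68 and -0.55). The medians were 0.41 and -0.12 for the transcription and RNA processing list. For the biogenesis regulators they were 0.27 with Rg3 and -0.48 with TAM. With the GC and length trend removed (not plotted), the TAM medians were -0.20 for these regulators and -0.65 for the mtDNA genes.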

How the data were processed

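The labels state that total RNA was extracted with TRIzol, purified on RNeasy columns and sequenced on an Ion Proton. The methods name FAST-QC for read quality, TopHat for alignment and MAQ for assembly, and the submitters' processing notes name GRCh38. The table that the authors deposited holds raw counts for each gene symbol. The counting tool, annotation, RNA selection and use of strand are not given in the sources used here. Each of the 3 value columns belonged to a labelled sample.

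From the deposited counts, TMM factors (edgeR 4.0.16, R 4.3.3) of 1.02, 1.12 and 0.879 for the untreated, Rg3 and TAM libraries scaled the libraries. A gene entered a comparison with 10 or more counts on either side, and was compared with exact two-sided binomial tests (scipy 1.17.1, Python 3.11.15) and Benjamini-Hochberg adjustment over all genes compared. A count of 0 was set to 3 before a fold was taken. The study's Limma test needs replicates and could not be fitted. Intervals are exact (Clopper-Pearson), except those of differences in log2 fold change between genes. The latter are normal approximations (Wald) on the counts, which are rough where a gene has few reads. Reads without molecular identifiers are not independent molecules, so all of these intervals cover counting error only.

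Gene positions, GC content and sequences came from GENCODE 29 on GRCh38. Rows were matched to it by position through RefSeq symbols. The trend on GC content and length was a loess fit (span 0.3) over nuclear genes with at least 50 counts. A value existed for 86.8% of the genes compared with Rg3 and 87.4% with TAM. Alternatives were library totals, DESeq2 1.42.0 size factors, nuclear genes alone for scaling, filters of 1 or 50 counts, calls by fold only, an edgeR exact test that takes the biological coefficient of variation (BCV) to be 0.2 or 0.4, and the trend. Copies of mtDNA were found by their names after the table was seen.

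Every mtDNA gene with at least 50 counts in any library is named. Of the other lists, the rule took up to 3 called genes in each direction with the largest folds among those with at least 100 counts, plus POLRMT, TFAM, TFB2M, LRPPRC, MTERF1 and PPARGC1A. The members and lists were chosen with earlier results of these data known. The comparison of genes between libraries was tested on simulated counts with known folds, counting error alone and scaling by library totals. TMM scaling, the trend, the sums and the differences between genes were not part of that test.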

Additional observations from a re-analysis of the deposited data

How the results depend on the processing

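With library totals, the mtDNA genes called were 2 higher with Rg3, 17 lower with TAM, and 12 higher and 1 lower for Rg3 against TAM. The summed log2 fold changes then became -0.55 (mRNA) and 0.89 (rRNA) with Rg3, -0.58 (mRNA), 0.68 (rRNA) and -1.27 (tRNA) with TAM, and, for Rg3 against TAM, 0.033 (mRNA) and 0.21 (rRNA), which reversed, and 0.71 (tRNA). With DESeq2 size factors they were -0.34 (mRNA) and 0.92 (rRNA) with TAM, and -0.35 (mRNA) and -0.17 (rRNA) for Rg3 against TAM. These shifts come from the change of factor, which is the same for every gene. Scaling by nuclear genes alone left every count, median and sum on its side, and a filter of 1 count, run for the counts and medians, did so for those.

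The fold alone called 2 of 29 mtDNA genes higher with Rg3, beside 25.0% of all genes. With at least 50 counts, Rg3 against TAM had 2 of 19 mtDNA genes higher, beside 35.4% of all genes. The median of the mtDNA genes then reversed to -0.068, because fewer tRNAs were tested. With the GC and length trend removed, the calls were 0 higher with Rg3, and 3 higher and 10 lower for Rg3 against TAM, and the medians -1.01 with Rg3 and -0.33, reversed, for Rg3 against TAM. The cause was not tested.

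edgeR's exact test with an assumed BCV of 0.2 called 0 higher and 1 lower with Rg3 (TRND), 0 higher and 4 lower with TAM (TRND, TRNT, TRNQ and TRNS2), and 1 higher and 1 lower for Rg3 against TAM (TRNT and ND6). TRNT, TRNQ and TRNS2 had under 10 counts in the TAM library and passed the filter through the other library. Over all genes, the test with a BCV of 0.2 called 0.39% higher and 0.56% lower with Rg3, and 0.68% and 2.27% with TAM. For Rg3 against TAM the shares were 17.8% and 13.1%. With a BCV of 0.4 it called 0 mtDNA genes in every comparison and direction, and at most 1 of all genes.

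Without the 10 most abundant nuclear genes, mtDNA took 3.31%, 2.58% and 2.49% of the untreated, Rg3 and TAM counts. Per 100 mRNA reads there were 9.92, 26.9 and 23.8 rRNA reads and 0.258, 0.256 and 0.160 tRNA reads. The tRNA intervals of Rg3 (0.237 to 0.277) and of the untreated library (0.240 to 0.276) overlap on that scale.

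No paired analysis was possible because no condition was sequenced more than once, and for the same reason no library was left out. The tRNA counts set a limit: 8 of 22 tRNAs were not compared at all, and a tRNA with few reads has an interval of several log2 units. TRNY was also not compared between the TAM and untreated libraries, nor TRNE between Rg3 and TAM.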

Other observations

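Of 20 genes for mtDNA replication and upkeep compared, Rg3 had 4 called higher and 5 lower (median log2 fold change -0.06), and TAM had 3 in either direction (median 0.04). Over all genes compared, 20.5% were called higher and 15.8% lower with Rg3, and 14.0% and 18.4% with TAM. With Rg3, RRM2B (1.31), which supplies deoxynucleotides outside S phase, SLC25A36 (1.00), a pyrimidine nucleotide carrier, and DNA2 (0.87), a nuclease and helicase, rose, and TYMP (-1.04), the thymidine phosphorylase, ATAD3A (-0.80) and C10orf2 (-0.65), the mtDNA helicase, fell. With TAM, ATAD3B (1.31), ATAD3A (0.92) and MPV17 (0.65) rose, and DNA2 (-1.09), RRM2B (-1.07) and SLC25A36 (-0.86) fell. With the GC and length trend subtracted, 1 was called higher and 1 lower in either treated library, of 19 with a value.

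Among 9 regulators of mitochondrial biogenesis, Rg3 had 4 called higher and 1 lower, and TAM, with 8 compared, had 1 higher and 4 lower, beside the same shares over all genes. GABPA, a subunit of nuclear respiratory factor 2, had 130 counts without treatment, 349 with Rg3 and 56 with TAM, called at 1.10 and -1.01. NFE2L2, a factor of the oxidative stress response, had 473, 1208 and 245 counts, called at 1.03 and -0.74, and GABPB1 was called at 0.63 and -0.70. PPRC1 fell with Rg3 (-0.91) and ESRRA rose with TAM (0.64). PPARGC1A, the coactivator PGC-1α, had 8, 28 and 7 counts, called at 1.48 with Rg3 and not compared with TAM. With the trend removed only NFE2L2 of these 6 was called, at 0.73 with Rg3 and -0.70 with TAM. PPARGC1B had 71, 99 and 25 counts, fewer than the rule for naming asks, and was named after its values were seen. It was also called lower with TAM once the trend was removed, at -0.79.

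Of 26 nuclear copies of mtDNA listed, 15 were in the table, and 10 were compared with Rg3 and 9 with TAM. With Rg3, MTRNR2L8 (0.72) and MTRNR2L1 (0.67) rose, and MTND1P23 (-1.21), MTND2P28 (-0.99) and MTND5P11 (-0.98) had the lowest values of the 4 that fell. With TAM, MTND4P12 (-0.68) fell and none rose. The shares over all genes are those given above. With the trend removed, MTRNR2L8 (0.24) and MTRNR2L1 (0.09) were not called with Rg3, 4 copies were called lower and 0 higher with Rg3, and 2 lower and 0 higher with TAM.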
